A study of Mus musculus with 12 samples.

Results

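The genes described here encode subunits of the last part of the mitochondrial respiratory chain: complex III (cytochrome bc1), cytochrome c, complex IV (cytochrome c oxidase) and ATP synthase. They were chosen by name, as the probe sets with a single gene symbol that begins with Uqcr, with Cox4, Cox5, Cox6, Cox7 or Cox8, or with Atp5, or that is Cyc1 or Cycs. This gave 46 probe sets for 45 symbols out of 22206 probe sets in all. Complex III had 9 (Uqcrc1, Uqcrc2, Uqcrfs1, Cyc1, Uqcrb, Uqcrh, Uqcrq, Uqcr10 and Uqcr11) and cytochrome c had 1 (Cycs). Complex IV had 18 (Cox4i1, Cox4i2, Cox5a, Cox5b, Cox6a1, Cox6a2, Cox6b1, Cox6b2, Cox6c, Cox7a1, Cox7a2, Cox7a2l, Cox7b, Cox7b2, Cox7c, Cox8a, Cox8b and Cox8c). The Atp5 prefix had 18 (Atp5a1, Atp5b, Atp5c1, Atp5d with both a coding and a noncoding probe set, Atp5e, Atp5o, Atp5f1, Atp5h, Atp5j, Atp5g1, Atp5g2, Atp5g3, Atp5j2, Atp5k, Atp5l, Atp5s and Atp5sl). RefSeq now calls Atp5s Dmac2l and Atp5sl Dmac2, so these matched by their older prefix only and are not subunits by name. RefSeq calls Atp5f1 Atp5pb, the b subunit.

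3T3-L1 is a line of mouse fibroblast-like cells that hormones turn into adipocytes. RNA from it was hybridised to 12 mouse Clariom S arrays, with 6 groups of 2 arrays. The groups were a control, squalene (SQ), which is the precursor of sterols, and its ethylene glycol derivatives, named tetra-SQ, tri-SQ, di-SQ and mono-SQ, each given at 5 µM for 14 days. All wells grew past confluence first, and the protocol then lists a medium with IBMX, dexamethasone and insulin, followed by insulin alone, each with or without a compound. The control arrays are labelled as untreated and as cells without induction, so the labels do not settle whether the control cells received the hormone mix. Nothing in the labels states that paired arrays came from separate cultures, so the p-values measure the spread between arrays, which may be technical.

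Complex III takes electrons from ubiquinol through its Rieske iron-sulphur protein and cytochrome c1 and hands them to cytochrome c, a small soluble carrier. Complex IV passes them on to oxygen, and the proton gradient that both complexes build drives ATP synthase, a rotary enzyme with a catalytic F1 head and a membrane part that holds the c ring. Each of the complexes also holds subunits encoded in mitochondrial DNA, and 3T3-L1 cells gain mitochondria as they become adipocytes. The mitochondrially encoded subunits were not analysed here.

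The 2 arrays of each compound were less alike than the 2 control arrays. The upper quartile of the log2 signal lay between 8.95 and 9.16 in the 12 arrays. The control arrays correlated at 0.997 with each other across probe sets, against 0.968 to 0.979 for the 2 arrays of each compound. All 10 adipocyte markers (Adipoq, Fabp4, Plin1, Lpl, Cidec, Slc2a4, Lipe, Pnpla2, Pparg and Cebpa) were above the median of the negative control probe sets in all 12 arrays, the controls included. Their log2 signals summed to between 155.79 and 155.99 in the controls, between 154.86 and 158 in the first compound arrays and between 120.48 and 124.69 in the second compound arrays. The first and the second arrays of the compounds, by the replicate number in the labels, are therefore given apart below. The labels do not say what the number marks, so a culture, an RNA preparation or a hybridisation behind it cannot be told apart.

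Over the 46 probe sets the first compound arrays lay above the controls and the second below. The median log2 signal minus the mean of the controls was 0.20 in SQ array 1, 0.65 in mono-SQ 1, 0.61 in di-SQ 1, 0.70 in tri-SQ 1 and 0.70 in tetra-SQ 1. In the second arrays it was -0.23 for SQ, -0.27 for mono-SQ, -0.15 for di-SQ, -0.78 for tri-SQ and -0.43 for tetra-SQ. SQ 1 stood nearest to the controls among the first arrays, and tri-SQ 2 farthest among the second. The second array was lower than the first for 39 of 46 probe sets in SQ, 41 in mono-SQ, 42 in di-SQ, 42 in tri-SQ and 43 in tetra-SQ, but for 23 of 46 in the controls. The median difference of second minus first array was -0.01 in control, -0.28 in SQ, -0.86 in mono-SQ, -0.62 in di-SQ, -1.46 in tri-SQ and -1.12 in tetra-SQ. Over all 22206 probe sets the same median stayed between -0.04 and 0.02 in every group.

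**Figure D1:**
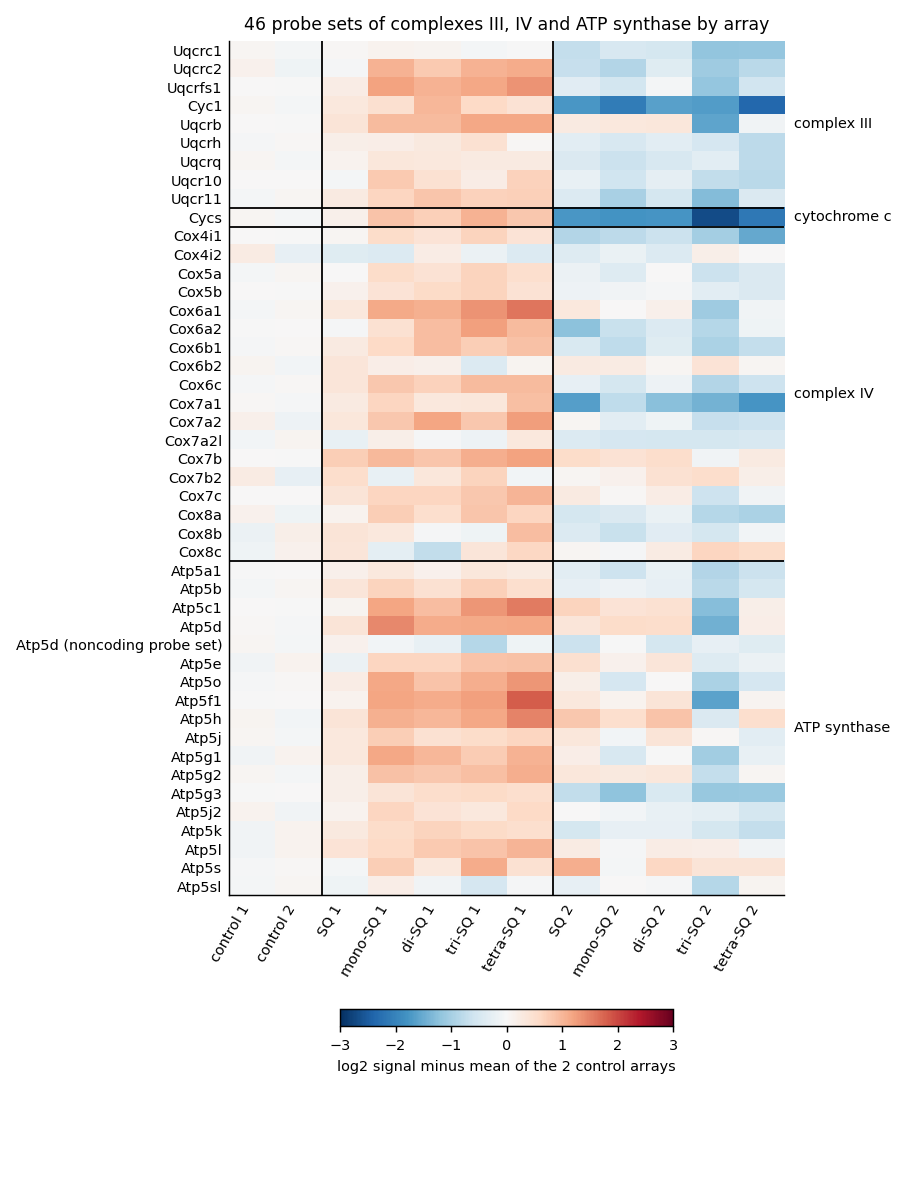
Log2 signal minus the mean of the 2 control arrays (colour, from -3 to 3) for each of the 46 probe sets (rows, by complex) in each array (columns: controls, first compound arrays, second compound arrays). The first compound arrays are mostly above the controls, the second mostly below, with Cycs and Cyc1 lowest; the dimmest rows (Cox4i2, Cox6b2, Cox7b2, Cox8b, Cox8c and Atp5s) are not well above background.

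Of the 46 probe sets, 34 were lower in the second than in the first compound arrays and 0 were higher at an adjusted p under 0.05 (limma over all probe sets, compound as a block, 10 arrays). By the same test 9.96% of all probe sets were called lower and 11.2% higher. The member median was -0.88, against -0.02 over all probe sets. All second arrays lay below all first arrays for 30 of the 46, against 8.86% of all probe sets. The signal came above the median of the negative controls on all 12 arrays for 35 of the 46. For 6 of the 46 it did so on at most 2 arrays: Cox4i2, Cox6b2, Cox7b2, Cox8b, Cox8c and Atp5s were not well above background, and no difference is given for them, although Cox8b is among the 34. In the same comparison all 10 adipocyte markers were called lower, with a median of -3.46, and 5 of 8 preadipocyte or fibroblast markers (Dlk1, Thy1, Ly6a, Cd34, Col1a1, Col3a1, Fn1 and Vim) were called higher, with a median of 0.59. The part of these markers in the members' difference was not tested. In RNA from a whole culture, fewer adipocytes and less of these transcripts in each adipocyte cannot be told apart.

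Cytochrome c and its membrane-bound partner cytochrome c1 had the largest differences of the 46. Cycs encodes somatic cytochrome c, which carries electrons from complex III to complex IV and also takes part in apoptosis. Its gene lies on chromosome 6 from 50562563 to 50566569 (GRCm38.p6). Its log2 signal was 16.28 and 16.17 in the controls. It was 16.38 in SQ 1, 17.08 in mono-SQ 1, 16.94 in di-SQ 1, 17.26 in tri-SQ 1 and 17.03 in tetra-SQ 1. The second arrays had 14.48 in SQ, 14.44 in mono-SQ, 14.45 in di-SQ, 13.53 in tri-SQ and 14.08 in tetra-SQ. The 3 sets did not overlap: every first array was above both controls and every second array below them. Second minus first was -2.74 ± 0.23 (SE; adjusted p = 1.37e-05). Within each compound Cycs ranked between 1 and 3 by its fall, with -3.73 in tri-SQ and -1.9 in SQ. The mouse genome holds processed copies of Cycs and of several other respiratory genes, and whether their transcripts bind the same probes was not tested.

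Cyc1 encodes cytochrome c1, the haem protein of complex III that docks cytochrome c, and lies on chromosome 15 from 76343513 to 76346260. Its log2 signal was 11.27 and 11.16 in the controls. The first arrays had 11.54 in SQ, 11.69 in mono-SQ, 12.2 in di-SQ, 11.82 in tri-SQ and 11.66 in tetra-SQ. The second arrays had 9.46 in SQ, 9.12 in mono-SQ, 9.59 in di-SQ, 9.54 in tri-SQ and 8.85 in tetra-SQ. These sets were also separate on both sides of the controls, and the difference between the arrays of a compound ran from -2.08 in SQ to -2.81 in tetra-SQ. The difference of second minus first was -2.47 ± 0.15 (SE; adjusted p = 1.86e-06).

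**Figure D2:**
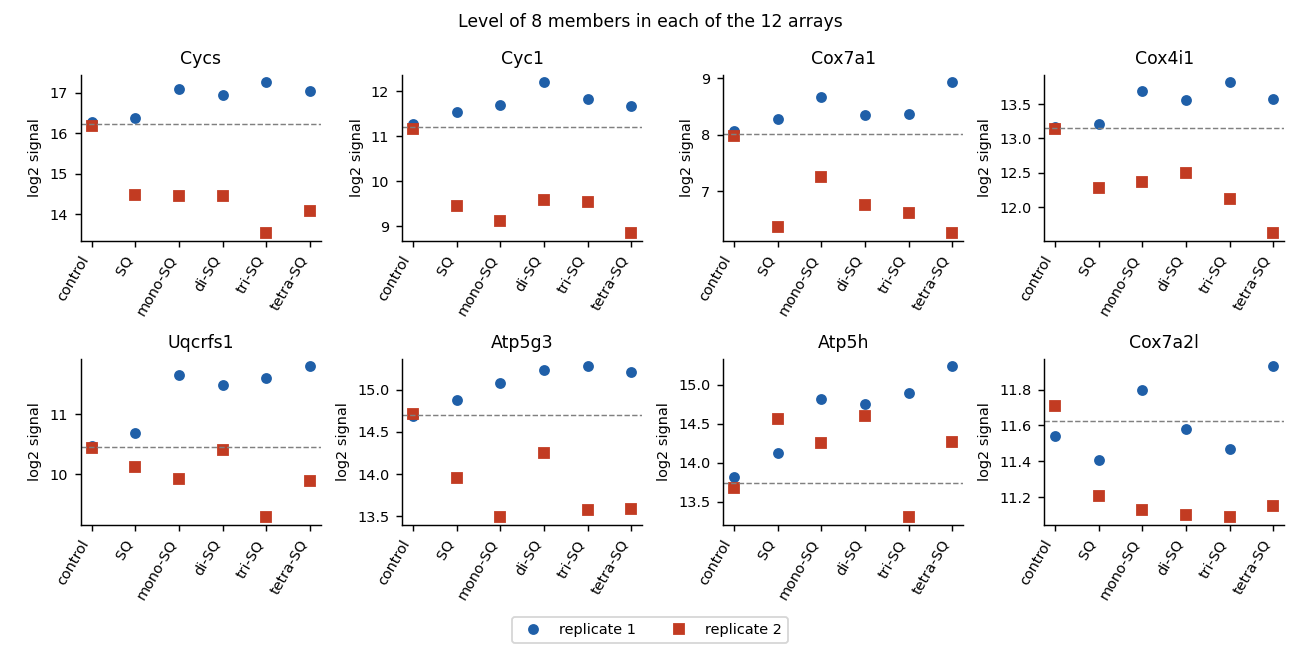
Log2 signal (vertical axes, which differ by panel and do not start at 0) of 8 members in the 2 arrays of each group (circles, replicate 1; squares, replicate 2; dashed line, control mean). Cycs, Cyc1, Cox7a1, Cox4i1, Uqcrfs1 and Atp5g3 have second compound arrays below both the controls and the first arrays; for Atp5h only the tri-SQ second array is below the controls, and for Cox7a2l the first arrays straddle them.

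All 9 complex III members fell, with a median of -1.08. The 4 core members had a median of -1.54 and the 5 supernumerary ones, small subunits that surround the core, -0.95. Uqcrfs1, the Rieske iron-sulphur protein, had 10.46 and 10.44 in the controls. Its first arrays had 10.68 in SQ, 11.65 in mono-SQ, 11.49 in di-SQ, 11.6 in tri-SQ and 11.8 in tetra-SQ, and its second arrays had 10.11, 9.91, 10.4, 9.28 and 9.88 in the same order. SQ 1 was close to the controls while the other first arrays were about 1 log2 unit above them, and di-SQ 2 was close to the controls from below. The second-minus-first difference came to -1.53 ± 0.23 (SE; adjusted p = 8.31e-04).

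Uqcrc1 and Uqcrc2 encode the core proteins that form the matrix side of complex III, and they differed in their first arrays. Uqcrc2 had 8.69 and 8.45 in the controls, 8.54 in SQ 1 and between 9.35 and 9.68 in the other first arrays, and 7.5 to 8.21 in the second arrays. Uqcrc1 had 11.49 and 11.35 in the controls, 11.35 to 11.53 in the first arrays and 10.23 to 10.94 in the second. The first arrays of Uqcrc1 thus lay on its controls, and those of Uqcrc2 above them except in SQ. The difference was -1.55 ± 0.22 (SE; adjusted p = 4.70e-04) for Uqcrc2 and -0.84 ± 0.15 (SE; adjusted p = 0.00216) for Uqcrc1.

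Among the supernumerary members the difference ran from -1.36 in Uqcr11 to -0.71 in Uqcrh, the hinge protein at the cytochrome c1 site. In tri-SQ 2 the signal of Uqcr11 was just below the negative control median (6.5 against 6.58). Uqcrb, a subunit at the matrix side of the complex, was the least even. Its second array stood close to the controls in SQ, mono-SQ, di-SQ and tetra-SQ (15.74, 15.78, 15.8 and 15.37, against 15.49 and 15.45) but at 13.89 in tri-SQ. Its first arrays were higher, between 15.85 and 16.64. The tri-SQ array alone was well below the rest, with an SE of 0.31 on the difference of -1.08.

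In complex IV 14 of 18 fell, with a median of -0.75 over all 18, the dim isoforms included. They were all 10 general isoforms (median -1.19), Cox7a2l, and Cox6a2, Cox7a1 and the dim Cox8b of the 7 tissue isoforms; Cox4i2, Cox6b2, Cox7b2 and Cox8c were the other 4 and were not well above background. Cox4i1, the general form of the largest nuclear-encoded subunit, had 13.17 and 13.13 in the controls. The first compound arrays had 13.21 in SQ, 13.69 in mono-SQ, 13.56 in di-SQ, 13.82 in tri-SQ and 13.57 in tetra-SQ, and its second arrays 12.28, 12.37, 12.5, 12.12 and 11.62 in that order. The 3 sets did not overlap, with SQ 1 only just above the controls. Second minus first was -1.39 ± 0.18 (SE; adjusted p = 2.45e-04).

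Cox7a1, the heart and muscle form of subunit 7a that brown fat also expresses, had the largest difference of complex IV. It had 8.06 and 7.98 in the controls. For the first arrays the values were 8.28 in SQ, 8.66 in mono-SQ, 8.34 in di-SQ, 8.37 in tri-SQ and 8.93 in tetra-SQ, and its second arrays 6.37, 7.25, 6.76, 6.61 and 6.26 in that order. The sets were separate, and the second array of SQ was as low as that of the derivatives. The difference of second minus first was -1.87 ± 0.19 (SE; adjusted p = 5.07e-05). Its signal was below the negative control median of the array in SQ 2 (6.37 against 6.48) and tetra-SQ 2 (6.26 against 6.66), so 3 of the 5 second arrays measured it.

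The general form Cox7a2 fell by 1.21 ± 0.21 (SE; adjusted p = 0.00177), with first arrays between 11.2 and 12.12 and second arrays between 10.19 and 10.92. The second-minus-first value of Cox7a1 was below that of Cox7a2 in 5 of 5 compounds, by a mean of -0.65 ± 0.59 (SD over compounds). Cox7a2l, a related protein that joins complexes III and IV into supercomplexes, had the smallest difference among the members called. Its signal was 11.54 and 11.71 in the controls, between 11.41 and 11.93 in the first arrays and between 11.09 and 11.21 in the second. The first arrays straddled the controls and the second lay together below them. The second-minus-first difference came to -0.50 ± 0.15 (SE; adjusted p = 0.0322), and its size was smaller than that of Cox7a2 in all 5 compounds. This call was lost with the second deposited table (adjusted p = 0.0628) and with arrays centred on their median (adjusted p = 0.0534). It was also lost without mono-SQ, di-SQ or tetra-SQ (adjusted p up to 0.124).

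Cox6a1 and Cox6a2 are the general and the heart and muscle form of subunit 6a. Cox6a1 had 14.11 and 14.24 in the controls, between 14.5 and 15.78 in the first arrays and between 13.12 and 14.48 in the second. Its SQ arrays were alike (14.5 and 14.48), and its tri-SQ arrays were far apart (15.53 and 13.12). The difference was -1.24 ± 0.28 (SE; adjusted p = 0.00922). Cox6a2 had signals between 6.62 and 7.87 in the first arrays (mean 7.36) and between 5.42 and 6.53 in the second (mean 5.99), and all 5 second arrays were below their negative control medians of 6.48 to 6.66. With those medians in place of the dim signals, Cox6a2 was at least 1.73-fold higher in the first arrays (adjusted p = 2.39e-04 on the signals as given).

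All of the remaining general members of complex IV fell as well. Cox6b1, which faces the intermembrane space, fell by 1.33 ± 0.17 (SE; adjusted p = 2.23e-04), Cox6c by 1.24 ± 0.19 (SE; adjusted p = 8.95e-04) and Cox8a by 1.16 ± 0.19 (SE; adjusted p = 0.00115). Cox5a and Cox5b, which bind at the matrix side, fell by 0.76 and 0.65, Cox7c by 0.73 and Cox7b by 0.63. Cox7b stood out against the controls: it had 12.95 and 12.92 there, between 13.67 and 14.15 in the first arrays and between 12.84 and 13.49 in the second. Its second arrays were above both controls in all compounds but tri-SQ.

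Of the Atp5 members 10 of 18 were called lower, with a median of -0.74, although all 18 had a difference below 0. By their place in the enzyme these were 3 of 6 probe sets of the F1 head, 2 of 4 of the stalk that holds the head still, 2 of 3 of the c ring, 3 of 3 small membrane subunits and 0 of the 2 that matched by prefix only. In F1, Atp5b, the catalytic beta subunit, had 15.74 and 15.85 in the controls. Array 1 of the compounds had 16.15 in SQ, 16.46 in mono-SQ, 16.25 in di-SQ, 16.51 in tri-SQ and 16.31 in tetra-SQ, and its second arrays 15.56, 15.65, 15.56, 14.99 and 15.27 in that order. Again the first arrays were all above and the second all below the controls, though the step below was small except in tri-SQ and tetra-SQ. Second minus first was -0.93 ± 0.17 (SE; adjusted p = 0.00221).

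Atp5a1, the alpha subunit, fell by 0.78 ± 0.16 (SE; adjusted p = 0.00579), with first arrays between 16.43 and 16.63, second arrays between 15.4 and 16.06 and controls at 16.28 and 16.3. Atp5d, the delta subunit at the foot of the rotating shaft, fell by 1.01 ± 0.30 (SE; adjusted p = 0.0341) on its coding probe set. That probe set had 12.35 and 12.27 in the controls and between 12.69 and 13.75 in the first arrays. Its second arrays had 12.68 in SQ, 12.85 in mono-SQ, 12.83 in di-SQ, 10.86 in tri-SQ and 12.51 in tetra-SQ, so only that of tri-SQ was below the controls. The noncoding probe set of Atp5d had -0.12 ± 0.19 (SE; adjusted p = 0.734). Its signal passed the negative control median on 7 of 12 arrays, and on only 1 of the second compound arrays. It was too close to background to be set against the coding probe set. Atp5c1 and Atp5e, the gamma and epsilon subunits of the same shaft, missed the threshold at -0.93 (adjusted p = 0.0968) and -0.49 (adjusted p = 0.216), and both were higher in the second than in the first SQ array.

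In the stalk Atp5o, the oligomycin sensitivity protein at the top, fell by 1.29 ± 0.26 (SE; adjusted p = 0.00497) and Atp5f1, the b subunit, by 1.23 ± 0.34 (SE; adjusted p = 0.0264). Atp5f1 had 11.42 and 11.45 in the controls, between 11.53 and 13.24 in the first arrays and between 9.84 and 11.81 in the second. Without tri-SQ 2, at 9.84, its second arrays lay between 11.52 and 11.81, all above the controls. Atp5h, the d subunit, had 13.82 and 13.67 in the controls. The values of the first arrays were 14.12 in SQ, 14.82 in mono-SQ, 14.75 in di-SQ, 14.9 in tri-SQ and 15.24 in tetra-SQ, and its second arrays 14.56, 14.25, 14.6, 13.3 and 14.26 in that order. Apart from tri-SQ 2, its second arrays were also above the controls, and the 2 array sets overlapped. Its difference was -0.57 ± 0.25 (SE; adjusted p = 0.154). Atp5j, subunit F6, had -0.47 ± 0.18 (SE; adjusted p = 0.0976).

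The c ring is encoded by 3 genes, Atp5g1, Atp5g2 and Atp5g3, that share the same mature protein and differ in their import sequence. Atp5g3 had 14.69 and 14.71 in the controls. In the first arrays it had 14.88 in SQ, 15.08 in mono-SQ, 15.23 in di-SQ, 15.28 in tri-SQ and 15.21 in tetra-SQ, and its second arrays 13.95, 13.49, 14.25, 13.57 and 13.59 in that order. The sets were separate on both sides of the controls. Atp5g3 fell by 1.37 ± 0.17 (SE; adjusted p = 1.94e-04) and Atp5g1 by 1.17 ± 0.23 (SE; adjusted p = 0.00365). Atp5g2 missed the threshold at -0.71 ± 0.23 (SE; adjusted p = 0.0512), but passed it in 5 of 8 other settings. Among these were dim probe sets left out (adjusted p = 0.0292), quantile normalisation (adjusted p = 0.0470) and both SQ arrays left out (adjusted p = 0.0103). Atp5g2 had 13.85 and 13.75 in the controls and between 13.98 and 14.9 in the first arrays. It had 13.08 in tri-SQ 2 and between 13.85 and 14.15 in the other second arrays. Its value was less negative than that of Atp5g3 in 5 of 5 compounds, and than that of Atp5g1 in 5 of 5. The small membrane subunits Atp5j2, Atp5k and Atp5l fell by 0.63, 0.96 and 0.62. Atp5sl was not above background on any second array, and no difference from the first is given for it.

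**Figure D3:**
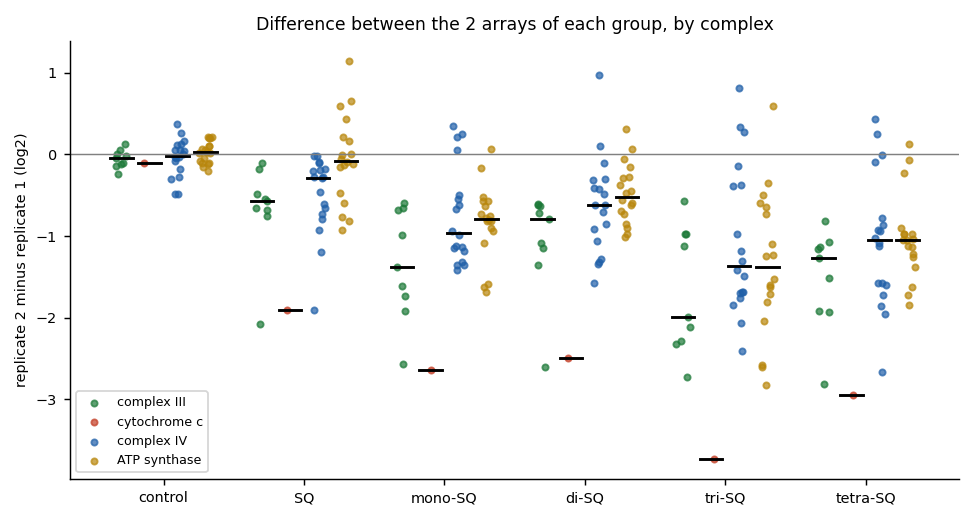
Replicate 2 minus replicate 1 (log2) for each probe set (points) within each group, by complex (colours; black bars, medians; points are shifted sideways at random). The controls lie around 0. The complex III medians are below those of ATP synthase in every compound, and in SQ the ATP synthase median is -0.08. The medians include the dim probe sets.

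In each of the 5 compounds the median of second minus first was below 0 for complex III, complex IV and ATP synthase. For complex III the median of second minus first was -0.57 in SQ, -1.38 in mono-SQ, -0.79 in di-SQ, -1.99 in tri-SQ and -1.27 in tetra-SQ. For complex IV it was -0.29, -0.97, -0.62, -1.37 and -1.05 in that order, and for ATP synthase -0.08, -0.79, -0.52, -1.38 and -1.05. The complex IV medians include Cox4i2, Cox6b2, Cox7b2, Cox8b and Cox8c, and those of ATP synthase include Atp5s, none of them well above background. These medians therefore do not rank the complexes by their measured members. In SQ 7 of the 18 Atp5 probe sets were higher in the second array, among them Atp5c1 (0.59), Atp5e (0.65) and Atp5h (0.44). In tri-SQ 30 of the 46 probe sets were lower in the second array by over 1 log2 unit, as in tetra-SQ. There were 4 in SQ, 18 in mono-SQ, 11 in di-SQ and 0 in control. The share of all probe sets with such a fall is not given here. The difference between complexes was not tested.

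Against the controls, the first compound arrays had a higher median but no member passed the test. The median difference was 0.55, against -0.01 over all probe sets, and 43 of 46 were above 0. With limma, 0 members were called at an adjusted p under 0.05, as against 0.0045% of all probe sets, and 27 of 46 were higher at an unadjusted p under 0.05, as against 6.62%. All 5 first arrays were above both controls for 30 of 46, as against 9.66% of all probe sets. The 3 highest were Cox6a1 with 1.10 ± 0.33 (SE; adjusted p = 0.232), Atp5f1 with 1.08 ± 0.45 (SE; adjusted p = 0.353) and the coding probe set of Atp5d with 1.05 ± 0.42 (SE; adjusted p = 0.328). The 4 stalk members had a median of 0.98, complex III 0.57 and complex IV 0.47. The complex IV value includes its dim isoforms, and its 10 general isoforms had a median of 0.69. Below 0 or near it were the noncoding probe set of Atp5d with -0.23 (adjusted p = 0.741), Atp5sl with -0.12 (adjusted p = 0.891), Cox7a2l with 0.01 and Uqcrc1 with 0.03. The adipocyte markers had 0 of 10 called in this comparison and a median of 0.04.

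In the second compound arrays against the same controls 9 of 46 were called lower and 0 higher, where 9.28% of all probe sets were called lower and 9.69% higher. The members' median was -0.35, against -0.01 over all probe sets. The 9 were Cycs, Cyc1, Cox7a1, Atp5g3, Cox4i1, Uqcrc1, Uqcrq, Cox6b1 and Uqcr11. Cycs fell by 2.03 ± 0.26 (SE; adjusted p = 3.83e-05), Cyc1 by 1.90 ± 0.22 (SE; adjusted p = 1.34e-05) and Cox7a1 by 1.37 ± 0.25 (SE; adjusted p = 8.05e-04). Next came Cox4i1, by 0.97 (adjusted p = 0.00546), Atp5g3, by 0.93 (adjusted p = 0.00443), and Uqcrc1, by 0.81 (adjusted p = 0.00991). The count depended on the controls: it was 3 without control 1 and 3 without control 2. All second arrays lay below both controls for 21 of 46 probe sets, against 19.5% of all, with 8 of 9 in complex III and 4 of 18 in ATP synthase. The highest values among members above background were those of Atp5h with 0.45 and Cox7b with 0.34 (adjusted p = 0.273), and Atp5c1, Atp5d on its coding probe set, Atp5e, Atp5j, Atp5l and Atp5g2 were also above 0, by 0.11 at most. All 10 adipocyte markers were called lower, with a median of -3.23, and 3 of 8 preadipocyte or fibroblast markers higher, and the part of these markers in the members' values was not tested. This and the previous comparison share the 2 control arrays.

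**Figure D4:**
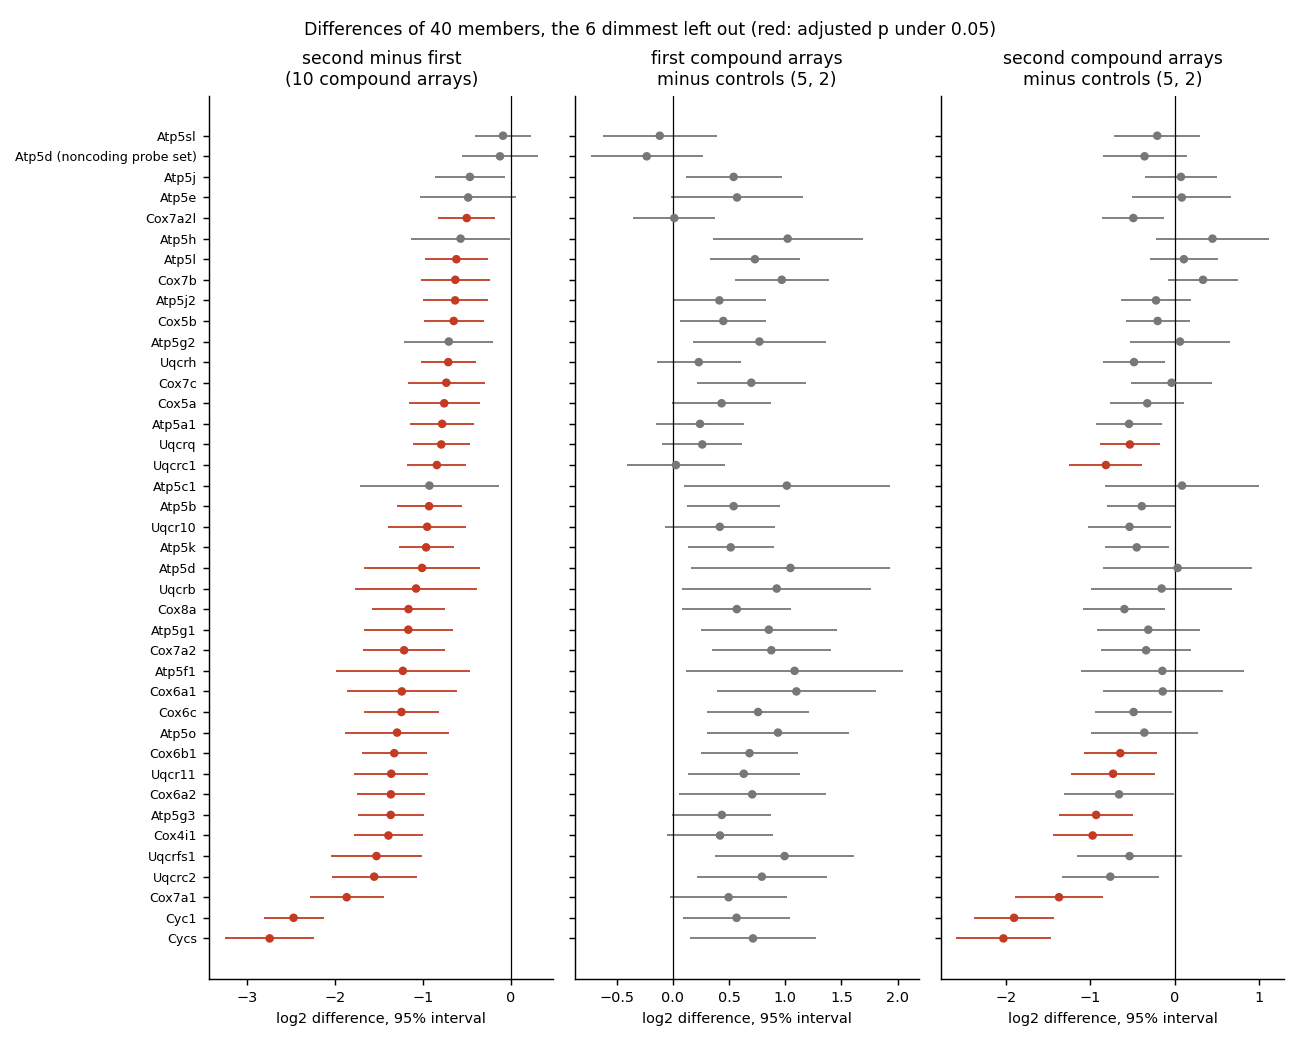
Log2 differences with 95% intervals for the 40 probe sets left without the 6 dimmest (rows, ordered by second minus first) in the second minus first compound arrays, the first compound arrays minus the controls and the second compound arrays minus the controls. Red marks an adjusted p under 0.05, reached by 33 of the rows on the left, 0 in the middle and 9 on the right. The second arrays of Cox6a2 and Atp5sl were not above background, and only 1 of the noncoding Atp5d probe set was.

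The difference of second minus first array could also be set against that in the controls. It differed at an adjusted p under 0.05 for 2 of 46, against 2.18% of all probe sets: Cyc1 with -2.36 ± 0.38 (SE; adjusted p = 0.0101) and Cycs with -2.63 ± 0.56 (SE; adjusted p = 0.0416). At an unadjusted p under 0.05 15 of 46 were lower, against 5.59% of all. The control part of this comparison rests on 1 array on each side. By the pairing check given below, the replicate numbers did not pair the controls with the compound arrays. The order of the 2 controls in this comparison may therefore be arbitrary. The count was 1 without either mono-SQ array, either di-SQ array or either tetra-SQ array.

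Each compound compared with the controls, over both of its arrays together, gave 0 called members in all 5 comparisons, where 0% of the tests on all probe sets were called. At an unadjusted p under 0.05 the count was 0 for SQ (5.03% of all probe sets), 0 for mono-SQ (5.9%), 0 for di-SQ (5.57%), 2 for tri-SQ (6.68%) and 0 for tetra-SQ (8.49%). The 2 were Atp5sl, with -0.68 ± 0.21 (SE; adjusted p = 0.687) and its second array not above background, and Cox7b2, which was not well above background. The means of 2 arrays that lay on opposite sides of the controls left wide intervals. Cycs had -0.80 ± 1.47 (SE; adjusted p = 0.942) in SQ, -0.53 (adjusted p = 0.961) in di-SQ and -0.83 (adjusted p = 0.936) in tri-SQ, the lowest member in each. Cyc1 was lowest in mono-SQ with -0.81 ± 1.30 (SE; adjusted p = 0.919) and in tetra-SQ with -0.96 (adjusted p = 0.836). The highest members were Cox7b with 0.65 in SQ (adjusted p = 0.920), the coding Atp5d with 0.99 in mono-SQ (adjusted p = 0.862), and Atp5h with 0.93 in di-SQ (adjusted p = 0.893) and 1.01 in tetra-SQ (adjusted p = 0.621). In tri-SQ the highest probe set was Atp5s, below background, and among the others Atp5l stood at 0.53.

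The authors' deposited tables held 46 rows for these genes in each comparison. In the authors' deposited tables, none of the 46 rows had a false discovery rate under 0.05 for any compound, and the smallest rate was 0.920 in SQ, 0.844 in mono-SQ, 0.894 in di-SQ, 0.688 in tri-SQ and 0.622 in tetra-SQ. Atp5sl had the authors' deposited signed fold of -1.6 in tri-SQ with a p-value of 0.009 before correction.

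The compounds differ, as their names say, in the number of ethylene glycol units joined to squalene, and all were given at 5 µM for 14 days. Over the 10 pairs of compounds, 0 member comparisons were called, adjusted over all probe sets, as were 0% of those over all probe sets. At an unadjusted p under 0.05 there were 8 of 460, against 3.3% over all probe sets. After adjustment over the 10 pairs as well the count was also 0. The median difference ran from -0.22 for tri-SQ minus di-SQ to 0.25 for di-SQ minus SQ, with a median margin of 1.19 on each side for the 95% interval of a member, so a difference of 1 log2 unit between compounds lies within a typical interval. Split by replicate number, the derivatives minus SQ had member medians between 0.39 and 0.53 in the first arrays and between -0.48 and 0.06 in the second. These splits have 1 array on each side and no test.

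Genes of the same pathway were read from lists of the other complexes, their assembly factors and their regulators. For complex I, which feeds electrons to ubiquinone from NADH, 27 of 36 subunits were called lower in the second than in the first compound arrays and 0 higher, with a median of -1.05. The lowest were Ndufb9 with -2.10 and Ndufab1 with -1.91, and the highest were Ndufa12 with -0.28 and Ndufa7 with -0.30. Ndufa7 was above the negative control median on only 3 arrays. All its second arrays (5.63 to 6.16) were below those medians (6.48 to 6.66), so the size of its value is limited by background. For complex II, which feeds electrons from succinate, 5 of 8 fell. They were the 4 subunits, led by Sdha (-1.22) and Sdhb (-0.996), and the assembly factor Sdhaf3 (-0.97). Sdhaf3 was below the negative control median in mono-SQ 2 (6.23), di-SQ 2 (6.2) and tri-SQ 2 (6.14). The assembly factors Sdhaf2 (-0.21), Sdhaf1 and Sdhaf4 did not pass, with Sdhaf1 and Sdhaf4 below background on all arrays. In the plot of list medians the complex I values were above the controls in all first and below them in all second compound arrays, as were those of the members.

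Lists of assembly factors, the proteins that help to build the complexes, had the following counts. For complex III 1 of 6 fell (Uqcc1, -0.72), with Bcs1l at -0.43, Ttc19 at 0.01 and Uqcc2 at 0.04. For complex IV 8 of 19 fell, with a median of -0.41, led by Higd1a (-1.43) and Pet100 (-1.11). All second arrays of Pet100 (5.24 to 6.35) were below their negative control medians (6.48 to 6.66), so the size of its value is limited by background. For ATP synthase, where the list also holds a small membrane subunit (Usmg5) and an inhibitor (Atpif1), 1 of 5 fell (Atpaf2, -0.99), with Usmg5 at -0.57 and Atpif1 at 0.41 (adjusted p = 0.163). Of 14 regulators of mitochondrial biogenesis 1 fell and 2 rose. Ppargc1b, a coactivator of oxidative genes, fell by 1.72 ± 0.14 (SE; adjusted p = 1.40e-05), and its signal in the second arrays was also lower than in the controls, with -1.81 ± 0.21 (SE; adjusted p = 1.21e-05). Gabpb1, the partner of the ETS factor Gabpa, rose by 1.03 ± 0.18 (SE; adjusted p = 0.00185), and Gabpa by 0.44 ± 0.14 (SE; adjusted p = 0.0442). Nrf1 had 0.17 (adjusted p = 0.480), Tfam 0.01 and Ppargc1a -0.08. The brown or beige adipocyte, macrophage and endothelium lists had 0 called members, with 6 of 7, 5 of 6 and 5 of 5 of their genes above background on no array. The skeletal muscle list had 1 of 7 called lower, with 6 of 7 above background on no array.

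**Figure D5:**
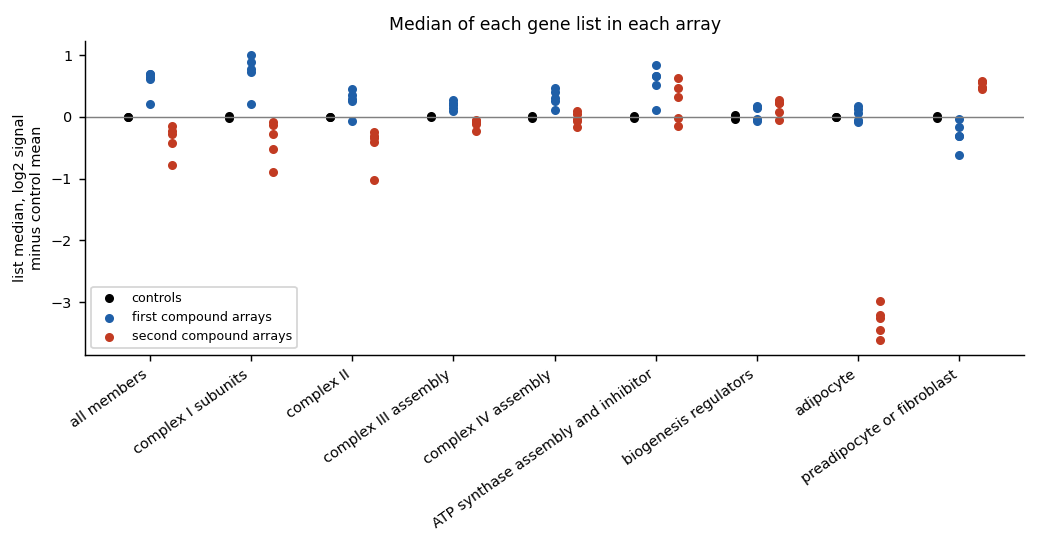
Median over each gene list of the log2 signal minus the control mean (vertical axis) in each array (black, controls; blue, first compound arrays; red, second compound arrays). The members and complex I are above the controls in the first and below them in the second arrays, while the adipocyte markers are near the controls in the first arrays and below every other list in the second.

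Promoter sequences were available from RefSeq (GRCm38.p6) for 35 of the 45 symbols, as 39 windows of 250 bases before to 50 after a transcription start. The windows of Cycs, Cox7a1, Uqcrfs1 and Atp5g3 are shown because these had the largest differences of second minus first among members with a window; the window of Cyc1 is not shown here. Capitals mark matches to the motifs searched. Cycs lies at chr6:50566520-50566819 on the minus strand, Cox7a1 at chr7:30183921-30184220 on the plus strand, Uqcrfs1 at chr13:30545267-30545566 on the minus strand and Atp5g3 at chr2:73911277-73911576 on the minus strand, each written 5′ to 3′ along the gene.
Cycs: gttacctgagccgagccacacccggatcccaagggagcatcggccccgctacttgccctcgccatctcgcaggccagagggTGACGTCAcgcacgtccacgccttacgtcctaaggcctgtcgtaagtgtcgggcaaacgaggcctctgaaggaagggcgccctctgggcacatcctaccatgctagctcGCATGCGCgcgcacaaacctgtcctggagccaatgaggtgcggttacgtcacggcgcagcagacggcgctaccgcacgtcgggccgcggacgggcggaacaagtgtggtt
Cox7a1: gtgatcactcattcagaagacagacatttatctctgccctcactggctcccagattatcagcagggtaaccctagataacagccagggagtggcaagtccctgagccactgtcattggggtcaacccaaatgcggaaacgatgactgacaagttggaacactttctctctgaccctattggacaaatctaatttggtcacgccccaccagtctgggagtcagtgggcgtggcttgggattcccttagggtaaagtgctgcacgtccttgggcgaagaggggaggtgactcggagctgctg
Uqcrfs1: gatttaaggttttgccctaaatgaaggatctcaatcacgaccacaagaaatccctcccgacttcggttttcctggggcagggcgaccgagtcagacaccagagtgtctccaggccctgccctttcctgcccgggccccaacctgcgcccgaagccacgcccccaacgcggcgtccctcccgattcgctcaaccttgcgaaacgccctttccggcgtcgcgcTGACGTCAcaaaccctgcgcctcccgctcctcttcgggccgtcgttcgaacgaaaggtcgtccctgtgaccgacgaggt
Atp5g3: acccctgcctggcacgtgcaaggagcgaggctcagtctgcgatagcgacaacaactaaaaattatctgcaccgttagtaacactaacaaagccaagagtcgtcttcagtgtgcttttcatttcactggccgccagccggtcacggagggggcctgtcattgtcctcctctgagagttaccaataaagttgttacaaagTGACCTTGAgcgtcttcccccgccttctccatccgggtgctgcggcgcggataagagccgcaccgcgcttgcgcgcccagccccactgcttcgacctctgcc
The Cycs window holds the CRE core TGACGTCA from position -169 and the NRF1 core GCATGCGC from -60, counted from the start. The Uqcrfs1 window holds the CRE core from -29, the Atp5g3 window holds the ERR element TCAAGGTCA on the other strand from -52, and the Cox7a1 window holds none of the motifs. CREB binds the CRE, and NRF1, GABP, YY1 and the ERR receptors are known regulators of respiratory genes.

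Over the 39 windows, searched on both strands, the NRF1 core GCATGCGC was in 17.9%, against 2.71% of 32851 windows of genes outside chromosome 18. The ETS core CCGGAAG, which GABP binds, was in 25.6% against 8.86%, and the YY1 core AAGATGG in 15.4% against 6.34%. The YY1 matches were in 6 windows of 5 members, as the windows of Atp5sl overlap. The ERR element TCAAGGTCA was in 2.56% against 0.423%, and the CRE core TGACGTCA, which reads the same on both strands, in 5.13% against 1.79%. These were 1 and 2 of the 39 windows. The NRF1 core was in windows of 7 members, namely Cycs, Uqcrc1, Uqcr11, Cox6a1, Atp5g2, Atp5k and Atp5l. Of these Atp5g2 was not called and the other 6 fell, where 34 of all 46 probe sets fell. A link between motif and fall was not tested. In Uqcrc1, Cox6a1, Atp5g2 and Atp5k the match on one strand overlapped one on the other. These are matches of letters in a window, and no window without one says anything of the factor.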

How the data were processed

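Total RNA of the 12 samples was labelled with a whole-transcript kit and hybridised to Clariom S mouse arrays, per the labels' protocols. SST-RMA normalisation was done by the authors in the Transcriptome Analysis Console, version 4.0.1, as the design text says. The deposited values are log2 signals, 1 per probe set and array, per the file headers. For every compound set against control, the authors' tables hold a signed fold score, a p-value and a false discovery rate, per the file headers, with the test not given in the sources used here. A second deposited table of log2 values of the same arrays served as an alternative and for the 5222 negative control probe sets, whose median in each array (6.09 to 6.66) marked background. Arrays give no read depth, so their number limits the precision.

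All fits used the deposited log2 signals of the 22206 probe sets with limma 3.58.1 in R 4.3.3 (lmFit, eBayes, two-sided), with p-values adjusted by Benjamini-Hochberg over all probe sets. Compounds against control and against each other were fitted over 6 groups, second against first compound arrays with the compound as a block, and both array sets against the controls in 1 fit of 3 classes. Some of the fits were tested on simulated data with independent noise in each array. These were second against first, both array sets against the controls, the difference against that in the controls, and SQ against control. The pairs of compounds were not simulated. Members were matched by symbol to RefSeq GRCm38.p6, which named all 45 symbols and gave the promoters. A member was called where its adjusted p was under 0.05.

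Values by array or array set are given for core and isoform members, and for the largest and smallest difference of each complex. They are also given for the highest and lowest members against control. The complex I list gives its 2 highest and 2 lowest genes, and the other lists name chosen genes only. The members, the gene lists and this naming rule were chosen with earlier results of these data known. The arrays' replicate numbers were checked for pairing: over all probe sets, the difference of array 2 minus array 1 correlated at 0.480 to 0.719 between compounds but at -0.00074 to 0.0024 between control and compounds, so the numbers did not pair the arrays of all groups. Alternatives were the second table, leaving out dim probe sets, quantile normalisation, median centring, an intensity trend in the variance prior, other blocks, single controls and leaving out each array.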

Additional observations from a re-analysis of the deposited data

Results flagged for a closer look

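In 10 of the 80 sets of 5 compound arrays screened, for the 40 members left without the 6 dimmest, 1 array stood apart from the other 4 beyond the Dixon limit of 0.71, which chance alone passes in about 1 of 20 sets. In 4 of them the array was SQ 1, the lowest of the first arrays, with 8.54 for Uqcrc2, 10.68 for Uqcrfs1, 15.85 for Uqcrb and 10.78 for Atp5e. In the other 6 it was tri-SQ 2 among the second arrays, with 13.89 for Uqcrb, 11.44 for Atp5c1, 10.86 for the coding probe set of Atp5d, 9.84 for Atp5f1, 13.3 for Atp5h and 13.08 for Atp5g2, each below both controls. Leaving out both tri-SQ arrays, a setting chosen after seeing the data, left 31 members called lower in second against first, and leaving out both SQ arrays left 38.

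The second-minus-first difference in the compounds differed from that in the controls by the test of the difference for Cyc1, with -2.36, and Cycs, with -2.632 (log2, limma). The replicate numbers did not pair the controls with the compound arrays.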

How the results depend on the processing

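The 34 members lower in second against first compound arrays became 33 to 36 under the other table, scalings, filter, variance prior and block. Without 1 array they numbered 23 to 38. Compound was a block in this fit and in that of the difference against the controls. Leaving out 1 array of a compound therefore took its other array out of these differences too, so such runs left out a whole compound. Second against controls, the 9 became 15 without dim probe sets, 14 with quantile normalisation, 14 with an intensity trend in the variance prior and 3 with control 2 alone, and ran from 3 to 11 without 1 array. For the difference against that in the controls, the 2 became 4 without dim probe sets and 1 with arrays centred on their median, and ran from 1 to 2 without 1 array. First against controls and the compound comparisons gave 0 called members in every alternative run. Calls of single members were followed in these runs for 27 members. Uqcrb, Uqcrq, Uqcr10, Uqcr11, Cox6c, Cox7c, Atp5c1, Atp5e, Atp5o, Atp5j, Atp5j2, Atp5k and Atp5l were not among them. Of the 27, 6 lost the call of second against first without 1 compound. They were Atp5f1 and Cox7b (mono-SQ, tri-SQ or tetra-SQ), Atp5d and Cox7a2l (mono-SQ, di-SQ or tetra-SQ), Cox5a (mono-SQ or tetra-SQ) and Cox5b (tetra-SQ). Their adjusted p went up to 0.106, 0.107, 0.0952, 0.124, 0.0537 and 0.0522 in that order. In second against controls, Cox6b1 lost the call with arrays centred on their median. It also lost it without the second array of mono-SQ, tri-SQ or tetra-SQ (adjusted p up to 0.0669). The calls of Cox6b1, Uqcrc1, Cox4i1 and Atp5g3 did not hold with either control array left out. Uqcrc2, Atp5a1, Cox7a2l and Uqcrh gained the call without dim probe sets, with quantile normalisation and with the intensity trend. Signs turned for some of the 27 members. Second against controls, Atp5g2 had -0.0065 in the other table; first against controls, Uqcrc1 had -0.0062 and Cox7a2l -0.033 with quantile normalisation, and Uqcrc1 -0.042 with control 1 alone; second against first, the noncoding Atp5d probe set had 0.038 without both SQ arrays. Without 1 array, the first-against-control value ran from -0.072 to 0.098 for Cox7a2l and from -0.042 to 0.098 for Uqcrc1. That of second against controls ran from -0.09 to 0.41 for Atp5d, -0.0075 to 0.26 for Atp5g2, -0.25 to 0.088 for Cox6a1 and -0.28 to 0.22 for Atp5f1, where tri-SQ 2 was the array left out at the upper end. That of second against first ran from -0.31 to 0.038 for the noncoding Atp5d probe set. The cause of these changes was not tested. With the replicate number as a block, called members of each compound against control numbered 0, as did those of the pairs of compounds. With 2 control arrays and dim isoforms below background, small differences are not resolved.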
